A study of Schizosaccharomyces pombe with 2 samples.

Results

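Transcript levels of the fission yeast (Schizosaccharomyces pombe) mutant asf1-1 were set against those of wild type on 1 Agilent tiling array read in 2 colours, with asf1-1 cDNA in the red channel (Cy5) and wild-type cDNA in the green channel (Cy3). This array is 1 of the 2 in the study. The other carries RNA of a strain deleted for hip1, also in Cy5 against wild type in Cy3, and is used here only to give values side by side. The asf1-1 array was taken by its label, and all 43993 of its probes with a chromosome position were kept as the starting set. Each probe is 60 bases long. Probes lie every 50 bp on alternate strands, so each strand is read every 100 bp.

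Per the labels, all cultures grew logarithmically in YEA, a rich medium, at 30 °C. The labels name the allele asf1-1 only and give no further genotype for it, for the hip1 deletion or for the wild type. Ribosomal RNA was depleted from total RNA, and the rest was reverse-transcribed and labelled indirectly. There is 1 array per mutant, no dye swap and no replicate, so no test was run and every error given below is an SD over probes of 1 array, which covers differences between spots only. A dye effect on a probe cannot be told apart from a change of its RNA. No source used here says whether the wild-type channels of both arrays held the same extract.

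Asf1 is a chaperone that hands histones H3 and H4 to the machineries that assemble nucleosomes, both behind the replication fork and outside S phase. Outside replication it works with the HIRA complex, of which Hip1 is a subunit. In fission yeast these chaperones are known for keeping retrotransposons and heterochromatic repeats silent and for limiting transcripts that start inside genes. The study as a whole, by its title, asked how these chaperones act on histone acetylation and on nucleosomes of heterochromatin. Whether any locus described here is such an element was not analysed, because no gene is given for any probe and no source used here names the genome build of their positions. Loci are therefore named by the array's own positions and by the probe strand as the array writes it, plus where the first coordinate is the lower one. Which RNA strand a probe detects was not analysed here.

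The array tiles 1 long block of chromosome 2 (1000011 to 3049820) and short blocks on chromosomes 1, 2 and 3 and on a sequence numbered 4 in the files. Of the 43993 probes, 850 were outlier spots on at least 1 of the arrays and 2479 were dim in every channel of both arrays, and 40664 were used. Well above background were 93.9% of probes in the asf1-1 channel and 79.6% in the wild-type channel. By the scanner's flags no spot was saturated in either channel. Before normalization the median probe had a log2 ratio of 0.93 (asf1-1 over wild type). Loess sets the middle of the array near 0, so a rise or fall of all RNA in the mutant would not be seen.

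Ratios were summarised in windows of 1 kb on 1 strand, as the median log2 ratio over at least 3 probes. There were 4380 such windows, with a median of 10 probes, and the median SD over the probes of a window was 0.54 on the log2 scale. From the 5th to the 95th percentile, window ratios ran from -1.16 to 1.70. At least 2-fold higher in asf1-1 were 595 windows, which is 13.6% of those measured. At least 2-fold lower were 325 windows, or 7.42%. The higher side also reached further. A ratio of 4-fold or more was seen in 150 windows on the higher and 22 on the lower side, and 19 windows reached 16-fold on the higher side. Of all windows past 2-fold, 64.7% were higher, a share that depends on the scaling: it was 80.02% with loess fitted on bright probes only, 58.6% with median centring and 63.0% with the scanner's own log ratio.

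Neither strand dominated. On the plus strand 284 of 2192 windows were at least 2-fold higher (13.0%), and on the minus strand 311 of 2188 (14.2%). Lower windows numbered 176 on the plus and 149 on the minus strand. The higher windows were spread along the long block of chromosome 2, and the plot of its windows shows them on both strands throughout. Among 21 bins of 100 kb, the share of higher windows ran from 7.04% to 18.5% and the share of lower windows from 3.0% to 12.6%. Higher windows outnumbered lower ones in 19 bins. The 2 exceptions began at 1.6 Mb, with 13 higher and 23 lower windows of 183, and at 2.1 Mb, with 19 higher and 25 lower windows of 200.

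**Figure D1:**
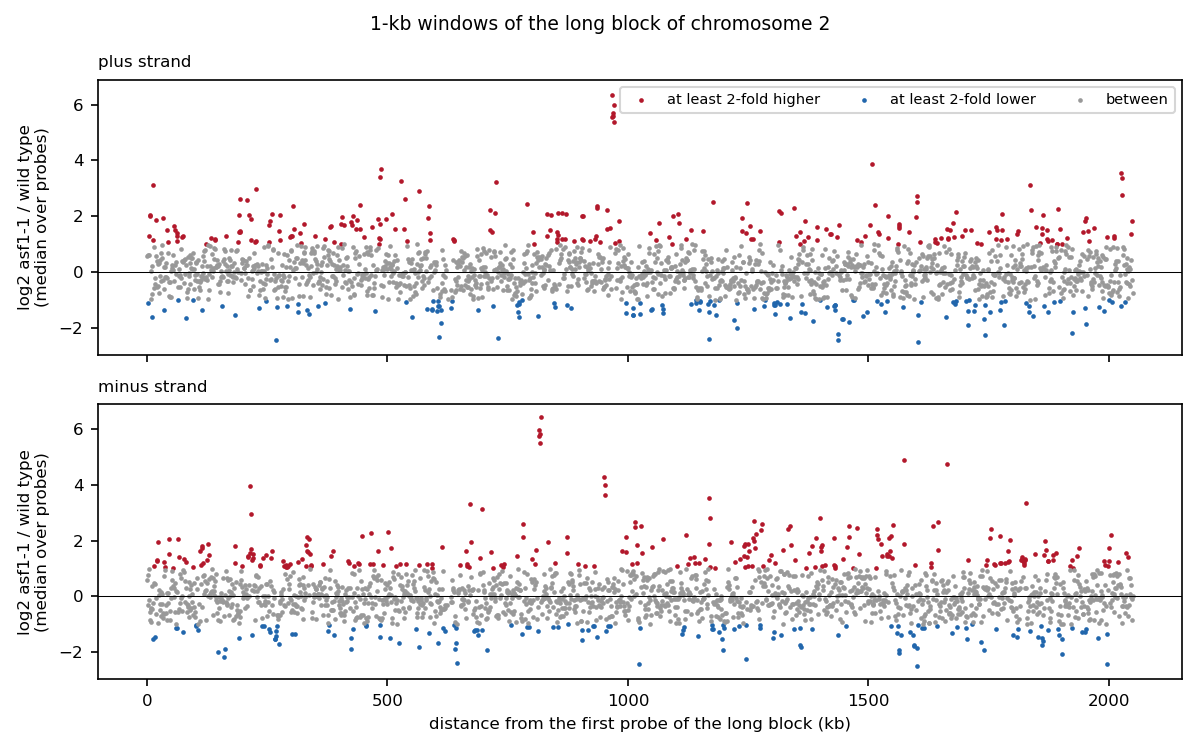
Each point is a 1-kb window of the long block of chromosome 2, placed by its distance from the block's first probe (kb), with the median log2 ratio of asf1-1 over wild type on the vertical axis and the plus strand above the minus strand. Red points are at least 2-fold higher and blue points at least 2-fold lower in asf1-1, and 1 group of windows on each strand stands above a log2 ratio of 5.

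Most changed windows stood alone or in pairs. The 595 higher windows formed 378 runs of neighbouring windows on 1 strand, of which 237 were lone windows, 95 were pairs and 46 held 3 or more. Those 46 runs held 168 windows, lay 23 on each strand and reached 6 windows at the longest. The 325 lower windows formed 232 runs, of which 173 were lone, 38 were pairs and 21 held 3 or more, with 14 of the 21 on the plus strand and at most 5 windows in a run. The longer runs also differed in size: 16 of the 46 higher runs had a median ratio of at least 4-fold, against 0 of the 21 lower runs.

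The 2 strongest loci of the array lie 148 kb apart in the long block of chromosome 2 and are read on opposite strands. For each, the boundaries were taken outward from the strongest probe as long as probes stayed past 2-fold, with 1 probe short of it allowed. On the minus strand, chr2:1814111-1819070 held 50 probes over 4.96 kb, all of them past 2-fold. The asf1-1 channel had a median spot intensity of 167838 and the wild-type channel 3624, and the median log2 ratio was 5.74 ± 0.64, or 53.6-fold. On the plus strand, chr2:1966661-1971620 also held 50 probes over 4.96 kb, all past 2-fold. Median spot intensities were 175244 in asf1-1 and 3620 in wild type, and the median log2 ratio was 5.82 ± 0.55, or 56.5-fold. The lowest single probe of either locus had a log2 ratio of 4.63 and the highest 8.19. Boundaries were drawn at 2-fold, so that all probes passed it follows in part from the definition. The SDs likewise leave out the probes beyond the boundaries. Fixed 1-kb windows across the edges held probes down to -0.89 (minus strand, from 1814011) and 0.27 (plus strand, from 1971061). With median centring in place of loess, the 10 named windows of these loci had ratios between 4.32 and 5.32.

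Both loci began and ended within 1 probe spacing. At the minus-strand locus the ratio was -0.89 in the probe just before it and 4.80 in its first probe, and 5.53 in its last probe and 0.40 in the next. At the plus-strand locus these values were 0.19 and 5.63 at the start, and 5.99 and 0.81 at the end. The opposite strand stayed near the middle of the array: its median was 0.32 ± 0.57 over 50 probes beside the minus-strand locus and 0.26 ± 0.44 over 51 probes beside the plus-strand locus. The wild-type channel gave signal at both loci, since all 50 wild-type spots of each were well above background.

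The profiles of these loci were alike when 1 was turned round. With the minus-strand locus mirrored and laid on the plus-strand locus probe by probe, Pearson's r of the log2 ratios was 0.91 over 50 probe pairs, and the median difference between paired probes was 0.12 on the log2 scale. With the overlay moved by 1 to 3 probes to 1 side, r lay between 0.19 and 0.27. Moved as far to the other side, the overlay took in the probe just outside the minus-strand locus, at -0.89. There r lay between -0.04 and 0.28, so these values do not compare the loci alone. Paired probes share the array and the distance from the start of the locus, and are not independent. Signal of a locus cannot be told apart from signal of a similar sequence elsewhere in the genome, since no probe sequence was analysed. On the hip1 deletion array the median log2 ratio was 5.49 ± 0.50 at the minus-strand locus, and 5.49 ± 0.37 at the plus-strand locus.

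**Figure D2:**
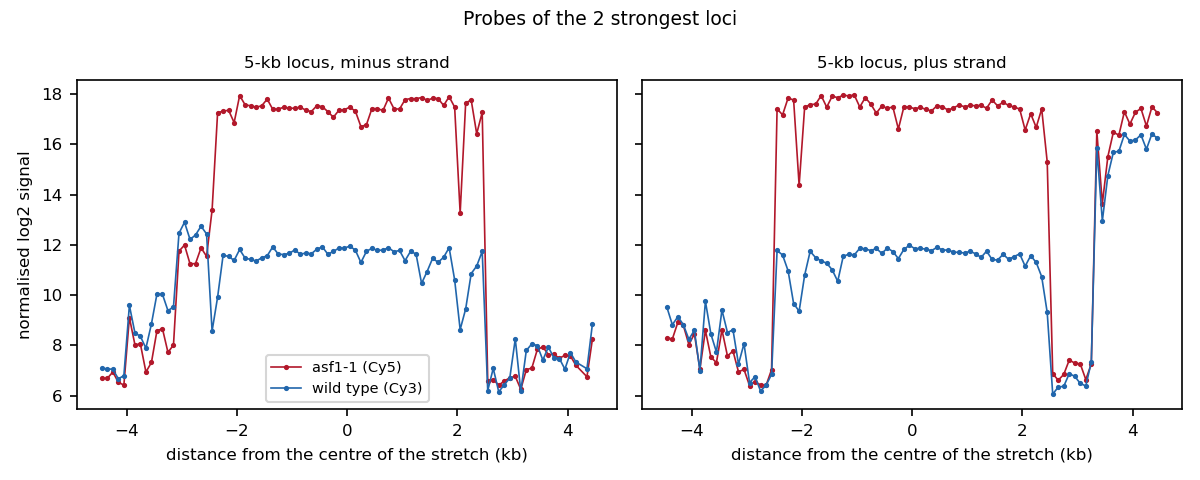
Normalised log2 signal of each probe of 1 strand across the 2 strongest loci, by distance from the centre of each locus (kb), with asf1-1 in red and wild type in blue, in order along the chromosome. Inside both loci asf1-1 probes have a median of about 17.4 to 17.5 and wild-type probes one of 11.6, and outside them the lines meet.

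The rest of the 19 windows at or above 16-fold lay in 3 further loci of chromosome 2 and in 2 places at the left end of chromosome 3. The minus-strand stretch chr2:2661911-2662770 was short, with 9 probes over 0.86 kb. Its median spot intensity was 170993 in asf1-1 and 7235 in wild type, and its median log2 ratio was 4.76 ± 0.77. The minus-strand stretch chr2:1949611-1952870 had a normalised log2 signal of 15.13 in asf1-1 and 11.04 in wild type over 33 probes, with a ratio of 4.04 ± 0.92. It too began sharply, at -0.05 in the probe before and 4.03 in the first probe. The minus-strand stretch chr2:2572811-2574670 had a signal of 13.02 in asf1-1 and 9.11 in wild type, and a ratio of 3.61 ± 1.38 over 19 probes.

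These 3 loci were higher on the hip1 deletion array as well, in different proportion. At chr2:2661911-2662770 the ratio of asf1-1 was 4.76 and that of hip1-deleted cells 4.74. At chr2:1949611-1952870 asf1-1 had 4.04 and hip1-deleted cells had 2.51. At chr2:2572811-2574670 asf1-1 had 3.61 and hip1-deleted cells had 4.33. The opposite strand of all 3 stayed within 2-fold, with medians of -0.19, -0.40 and -0.17 in asf1-1.

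Further stretches of chromosome 2 were between 8.27 and 28.3-fold higher. The 6 minus-strand probes of chr2:2427511-2428070 had a median of 4.82 ± 1.62 (log2) in asf1-1, beside 3.78 in hip1-deleted cells. The 36 probes of chr2:1213311-1216870 on the minus strand had 3.32 ± 1.04 in asf1-1, with signals of 12.68 in asf1-1 and 9.27 in wild type, and 1.504 ± 1.61 in hip1-deleted cells. The 27 probes of chr2:3025461-3028120 on the plus strand had 3.05 ± 0.88 in asf1-1, with signals of 11.62 in asf1-1 and 8.47 in wild type, and 3.67 in hip1-deleted cells. All wild-type probes of these 3 stretches were well above background, so the wild-type signal was low but measured. Stretches were picked out after their values were seen.

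Other long runs were weaker. The plus-strand run from 1481061 to 1487020 held 6 windows with a median log2 ratio over probes of 1.46 ± 1.30, where asf1-1 had a signal of 9.20 and wild type 7.74. The plus-strand run from 1189061 to 1195020 also held 6 windows, with 1.53 ± 0.78 and signals of 9.60 in asf1-1 and 8.16 in wild type. The other 3 named runs of 5 windows had medians of 1.64 (minus strand, 2399011 to 2403970), 1.39 (plus strand, 1851061 to 1856020) and 1.29 (minus strand, 2821011 to 2825970). In the plus-strand runs of 6 windows, 35 of 56 and 44 of 59 wild-type spots were well above background. In the runs of 5 windows they were 41 of 49, 17 of 49 and 20 of 50. The opposite strand of these 5 runs had a median below 0, at -0.87, -0.71, -0.09, -0.70 and -0.41 in the order given. Over all 46 higher runs of 3 or more windows the opposite strand was below 0 in 28 and above 0 in 18. Counted by single windows of the whole array, it was below 0 in 2123 of 4366 and above 0 in 2243.

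Lower runs were shorter and shallower. The minus-strand run from 1265011 to 1269970 held 5 windows at -1.35 ± 0.50, with signals of 8.21 in asf1-1 and 9.89 in wild type. The minus-strand run from 2196011 to 2199970 held 4 windows at -1.62 ± 0.66, with 8.47 in asf1-1 and 10.29 in wild type. The plus-strand run from 1771061 to 1775020 held 4 windows at -1.37 ± 0.54 and stayed bright, with 13.13 in asf1-1 and 14.75 in wild type. The ratio of hip1-deleted cells was -1.12, -1.02 and -0.96 in these runs, in the order given.

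Higher windows were, as a group, the dimmer strand of their position in wild type. Of the 594 higher windows whose opposite strand was measured, 434 (73.1%) were at least 2-fold dimmer in wild type than the opposite strand and 90 at least 2-fold brighter. Over all 4366 windows with both strands measured, 42.5% were dimmer and 42.5% brighter. Their median signal was 10.19 in asf1-1 and 8.47 in wild type, while the opposite strand had 11.30 in asf1-1 and 11.65 in wild type. The opposite strand of these windows had a median ratio of -0.36. It was at least 2-fold higher in 36 of them, at least 2-fold lower in 104 and between in 454. Among all 4366 windows with both strands measured, the opposite strand was at least 2-fold higher in 594 and lower in 325. The 325 lower windows mirrored the higher ones: 210 (64.6%) were at least 2-fold brighter in wild type than the opposite strand. Their opposite strand was at least 2-fold higher in 104 and lower in 20, with a median of 0.32. Signal of the wild-type channel enters both the ratio and this choice of strand, so the 2 are not independent, and the wild-type channel's part in the pattern was not tested.

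At 104 positions, or 4.76% of the 2183 with both strands measured, the strands moved past 2-fold in opposite directions. The plus strand was the higher one at 47 and the minus strand at 57. Of the positions, 95 were on chromosome 2, 7 on chromosome 3 and 2 on chromosome 1. Most of the array is chromosome 2: its long block alone held 2038 of the 2192 plus-strand windows. On the strand that was higher the median ratio was 1.61, with a signal of 10.06 in asf1-1 and 8.38 in wild type. On the strand that was lower the median ratio was -1.36, with 9.84 in asf1-1 and 11.40 in wild type. The higher strand had been the dimmer of the pair in wild type at 88 of the 104 positions. In asf1-1 it was the brighter of the pair at 54 of the 104. Both signals enter the ratios by which these positions were chosen, so these counts are descriptions only.

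The position with the widest gap between strands was at 2168011 to 2169020 on chromosome 2. Its minus strand had a log2 ratio of 3.52 ± 0.34, with signals of 12.58 in asf1-1 and 8.75 in wild type. Its plus strand had -2.41 ± 0.67, with signals of 8.996 in asf1-1 and 11.41 in wild type. The brighter strand of the position was therefore the minus strand in asf1-1 and the plus strand in wild type. The higher stretch extended over 37 probes, chr2:2167911-2171570, at 2.74 ± 0.97, and the lower one over 16 probes, chr2:2168061-2169620, at -1.76 ± 0.64. On the hip1 deletion array these stretches had 3.27 and -1.57.

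Other loci had strands past 2-fold in opposite directions over several kb. At chr2:2598661-2602420 the plus strand had a ratio of 2.22 ± 0.74 over 38 probes, with signals of 10.53 in asf1-1 and 8.41 in wild type. The minus strand at chr2:2600111-2602370 had -2.33 ± 0.50 over 22 probes, with 8.60 in asf1-1 and 10.94 in wild type. At chr2:2561861-2564720 the plus strand had 1.68 ± 0.32 over 29 probes, and the minus strand at chr2:2562511-2564970 had -1.94 ± 0.55 over 19 probes. At chr2:2860161-2863320 the plus strand had 1.62 ± 0.41 over 32 probes and the minus strand, at chr2:2859211-2863170, had -1.52 ± 0.47 over 35 probes. Well above background were 36 of 38, 16 of 29 and 10 of 32 plus-strand wild-type spots of these loci, in the order given.

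Single positions with a wide gap between strands were also found elsewhere. At 1485011 to 1486020 the plus strand had 3.39 ± 0.80 and the minus strand -1.45 ± 0.41. At 1566011 to 1566970 the plus strand had 2.90 ± 0.92 and the minus strand -1.82 ± 1.17, and at 2246011 to 2247020 these values were 2.46 ± 0.97 and -2.26 ± 0.51. At 2827011 to 2828020 the minus strand had 3.34 ± 0.51, with signals of 15.26 in asf1-1 and 11.81 in wild type, and was the brighter strand in both, since the plus strand had 6.64 in asf1-1 and 7.76 in wild type.

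**Figure D3:**
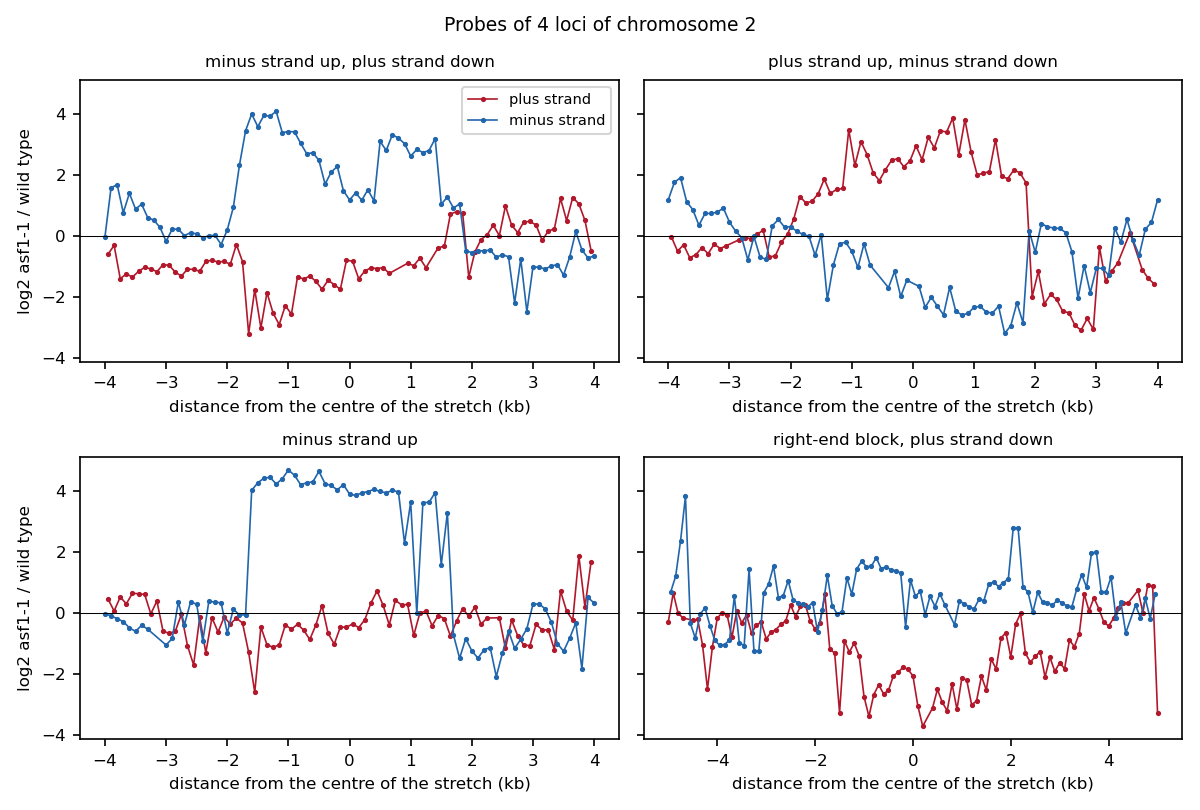
Log2 ratio of asf1-1 over wild type for each probe of the plus strand (red) and the minus strand (blue) at 4 loci of chromosome 2, by distance from the centre of the stretch (kb). The upper panels show loci where the strands part in opposite directions (medians 2.74 and -1.76 on the left, 2.22 and -2.33 on the right), the lower left panel a stretch on the minus strand alone (4.04), and the lower right panel the plus-strand stretch of the right-end block at -2.34.

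Positions where both strands were higher were rare. There were 18 such positions, 0.825% of 2183, and 10 with both strands lower, 0.458%. Of the 18, 9 were on chromosome 3, 8 on chromosome 2 and 1 on the sequence numbered 4. Of the 8 on chromosome 2, 4 were in the short block at its right end. Of the 2192 plus-strand windows, 2038 were in the long block of chromosome 2 and 51 in its right-end block. The block at the left end of chromosome 3 held 50. Of the 18 positions, the 4 with the highest plus-strand ratio were all at the left end of chromosome 3 and are described next. In the long block the position at 1215011 to 1216020 had 1.13 ± 0.44 on the plus and 2.96 ± 0.51 on the minus strand.

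The first 20 kb tiled on chromosome 3 held short stretches of high ratio on both strands against a background that differed between strands. On the plus strand chr3:2661-5720 had a median log2 ratio of 3.55 ± 1.74 over 31 probes, with signals of 12.94 in asf1-1 and 9.72 in wild type. Also on the plus strand, chr3:13561-16020 had 4.21 ± 1.74 over 25 probes, with 14.27 in asf1-1 and 9.52 in wild type. On the minus strand chr3:3011-4670 had 4.20 ± 1.85 over 17 probes and chr3:13911-15670 had 3.05 ± 1.87 over 18 probes. The SD is wide because single probes within a stretch ranged from below 0 to 6.23.

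The same stretches were not higher on the hip1 deletion array. The plus-strand stretch from 2661 had 3.55 ± 1.74 in asf1-1 and -0.81 ± 0.53 in hip1-deleted cells, and the plus-strand stretch from 13561 had 4.21 ± 1.74 in asf1-1 and -0.79 ± 0.63 in hip1-deleted cells. The minus-strand stretch from 3011 had 4.20 ± 1.85 in asf1-1 and -0.09 ± 0.48 in hip1-deleted cells, and that from 13911 had 3.05 ± 1.87 in asf1-1 and -0.15 ± 0.66 in hip1-deleted cells. The hip1 deletion values of all 4 stretches lay below 0 and within 2-fold. With the wild-type signal of the hip1 deletion array in place of its own, the 7 windows of the asf1-1 array named in these stretches had ratios between 1.90 and 4.63.

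The pattern recurred along the chromosome. Over the first 24 kb, shifting the probes by 10.9 kb gave the best match on both strands among shifts from 5 to 15 kb. At that shift Pearson's r of the log2 ratio was 0.88 on the plus and 0.84 on the minus strand, each over 125 probe pairs. The wild-type signal matched at the same shift, with r of 0.81 on the plus and 0.96 on the minus strand. So did the log2 ratio of the hip1 deletion array, with r of 0.61 on the plus and 0.80 on the minus strand. Neighbouring probes share the array and are not independent, and whether the sequence itself repeats at that distance was not analysed here.

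**Figure D4:**
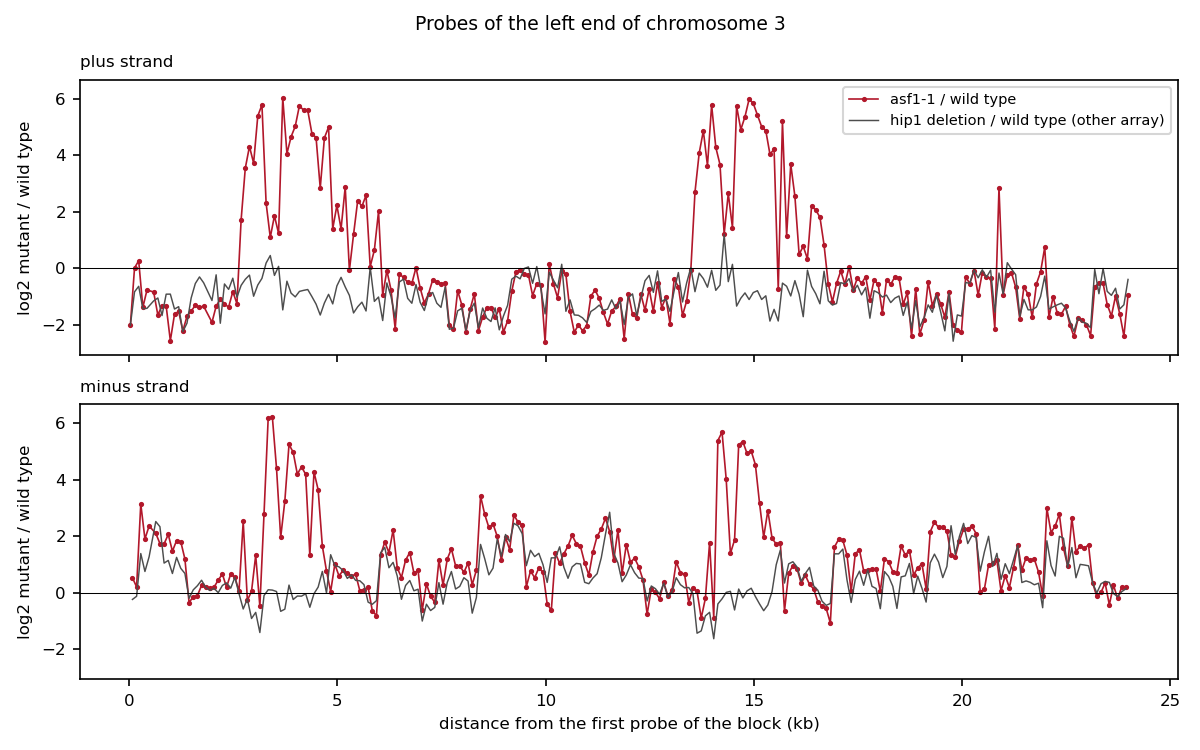
Log2 ratio of each probe over the first 24 kb tiled on chromosome 3, by distance from the block's first probe (kb), plus strand above and minus strand below, with asf1-1 over wild type as red points and the hip1 deletion over wild type as a grey line. Groups of probes 10.9 kb apart reach log2 ratios of about 6 in asf1-1, where the grey line stays within 2-fold at the median.

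Over the whole of the first 20 kb, those stretches included, the strands differed in level. The minus strand was very bright, with a median signal of 17.90 in asf1-1 and 16.82 in wild type, and its median ratio was 1.09 ± 1.45. That median was 0.42 with median centring and 0.94 with loess on bright probes only, both under 2-fold. Among its 20 windows, 12 (60%, beside 13.6% of all windows) stood 2-fold or more above wild type and 0 below. The brightest stretch, chr3:8411-9470, had a median spot intensity of 495217 in asf1-1 and 92426 in wild type and a ratio of 2.41 ± 0.62. Ribosomal RNA was depleted before labelling, and whether any left in either sample enters these bright signals was not tested. Of the 19 windows of the plus strand, 6 were higher (31.6%) and 7 lower (36.8%, beside 7.42% of all windows). Its run of 5 lower windows from 8061 to 13020 had -1.48 ± 0.61 in asf1-1 and -1.42 ± 0.53 in hip1-deleted cells. The plus-strand median of the 20 kb was -0.56, and it became 0.47 with the wild-type signal of the hip1 deletion array, so its direction depends on which wild-type signal is used.

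From 20 to 50 kb on chromosome 3 the median was 0.33 ± 1.36 on the plus and 0.84 ± 1.57 on the minus strand. Higher were 11 of 30 plus-strand windows (36.7%) and 10 of 30 minus-strand windows (33.3%), beside 13.6% of all windows. The minus-strand run from 42011 to 47970 held 6 windows, as many as any run of the array, at 2.76 ± 1.57 over 60 probes, with signals of 11.22 in asf1-1 and 8.68 in wild type. Across its left edge chr3:41811-43470 had 3.77 ± 1.94 over 17 probes in asf1-1 and 1.70 ± 2.18 in hip1-deleted cells. Within it chr3:43811-46970 had 2.68 ± 0.63 over 32 probes in asf1-1 and 2.38 ± 0.83 in hip1-deleted cells.

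The short block at the right end of the tiled part of chromosome 2 (4491601 to 4541560) had higher but no lower windows on the minus strand and both on the plus strand. On the minus strand 16 of 50 windows (32%, beside 13.6% of all windows) were 2-fold higher or more and 0 were lower. The median over probes there was 0.72 ± 1.104. On the plus strand 13 of 51 windows were higher (25.5%) and 10 lower (19.6%, beside 7.42% of all windows). The plus-strand median was 0.37 ± 1.49. All 13 higher ones lay between 4491601 and 4524960, and all 10 lower ones between 4525001 and 4540960. The wild-type channel was dim here, with 56.0% of plus-strand and 59.1% of minus-strand probes well above background, against 80.4% on each strand of the long block.

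The right-hand part of that block held the lowest window of the array. The plus-strand stretch chr2:4528001-4531460 had a median spot intensity of 1268 in asf1-1 and 3813 in wild type over 34 probes. The normalised signal was 9.67 in asf1-1 and 12.002 in wild type, and the log2 ratio was -2.34 ± 0.74. Its lowest window, 4530101 to 4530960, had -2.93 ± 0.44 over 9 probes. The hip1 deletion had 0.33 ± 0.64 over the stretch and 0.29 ± 0.09 in that window. None of the 10 lower windows of the block was 2-fold lower in hip1-deleted cells, where they ran from -0.72 to 0.72. In the higher part, the minus-strand stretch chr2:4505351-4507010 had 2.66 ± 0.19 over 17 probes in asf1-1, with signals of 15.54 in asf1-1 and 12.84 in wild type, and 1.70 ± 0.22 in hip1-deleted cells.

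Lower loci elsewhere were smaller than the highest ones, and all 12 windows named as lowest lay on chromosome 2, between -2.93 and -2.26. The long block of that chromosome held 2038 of the 2192 plus-strand windows measured. The plus-strand window at 2603061 to 2603920 had -2.52 ± 1.05 over 9 probes, with signals of 8.54 in asf1-1 and 10.77 in wild type, and -2.45 ± 1.103 in hip1-deleted cells. The minus-strand window at 2601011 to 2601970 had -2.48 ± 0.27, with signals of 8.45 in asf1-1 and 10.92 in wild type, and -1.94 ± 0.36 in hip1-deleted cells. On the plus strand, 1606061 to 1607020 stood at -2.33 ± 0.32 in asf1-1, beside -0.60 ± 0.20 in hip1-deleted cells. On the minus strand, 1644011 to 1644970 stood at -2.40 ± 0.44 in asf1-1, beside -0.63 ± 0.77 in hip1-deleted cells. With median centring these 4 windows had -1.32, -1.655, -1.35 and -1.654, in the order given. With the wild-type signal of the hip1 deletion array the last 2 had -1.19 and -1.31, and the minus-strand window at 2023011 to 2023970, at -2.43 ± 0.73 with its own wild type, had -1.40.

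The windows at 1606061 and 1644011 fell in an interval of 50 kb from 1.6 Mb that was set aside for the centromere of chromosome 2 from general knowledge of the chromosome. That the array's positions place the centromere there was not checked. The median ratio in it was -0.36 ± 1.04 on the plus strand, with 3 of 41 windows higher and 9 lower. On the minus strand it was -0.38 ± 1.01, with 1 of 41 higher and 8 lower. On the higher side these were 7.32% of plus-strand and 2.44% of minus-strand windows, beside 13.6% of all windows. On the lower side they were 21.95% and 19.5%, beside 7.42%. The strongest higher window there, on the minus strand at 1612011 to 1612970, had 1.77 ± 0.46 in asf1-1 and 1.95 ± 0.22 in hip1-deleted cells. The interval's medians turned to 0.17 and 0.20 with median centring, and only 58.8% of its plus-strand and 58.0% of its minus-strand probes were well above background in wild type. Its direction is therefore not settled by these data.

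An interval of 50 kb from 2.1 Mb, set aside in the same way for the mating-type region, lay at the middle of the array. Its median was -0.05 ± 0.99 on the plus strand, with 4 of 49 windows higher and 4 lower. On the minus strand it was 0.07 ± 0.99, with 7 of 50 higher and 4 lower. Higher were 8.16% of the interval's plus-strand and 14% of its minus-strand windows, beside 13.6% of all windows. Lower were 8.16% and 8% of them, beside 7.42%. The highest window, on the minus strand at 2120011 to 2120970, had 2.18 ± 0.15 in asf1-1, with signals of 13.75 in asf1-1 and 11.51 in wild type, and 1.08 ± 0.16 in hip1-deleted cells. The plus-strand windows at 2104061 to 2105020 and 2105061 to 2105920 had 2.09 ± 0.43 and 1.77 ± 1.13 in asf1-1.

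The block of chromosome 1 and both short blocks inside chromosome 3 each had a median at least 2-fold higher on 1 strand only. The block of chromosome 1 (2195400 to 2200359) had a median of 1.84 ± 1.26 on the minus strand and -0.69 ± 0.89 on the plus strand. On the minus strand the windows at 2197050 to 2198009 and 2198050 to 2199009 had 3.78 ± 1.24 and 3.19 ± 0.64 in asf1-1, and 3.82 and 3.57 in hip1-deleted cells. The plus strand beside them was the brighter one in wild type and had -1.03 ± 0.45 and -0.65 ± 0.32 in asf1-1.

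On chromosome 3 the block at 1724400 to 1727359 had a plus-strand median of 2.79 ± 1.07 in asf1-1 and 1.24 ± 0.93 in hip1-deleted cells, with all 4 of its windows at least 2-fold higher in asf1-1. Its minus strand had 0.73 ± 0.49 in asf1-1 and -0.09 ± 0.33 in hip1-deleted cells. At 1725000 to 1726009 both strands were past 2-fold in asf1-1, at 2.31 on the plus and 1.00 on the minus strand. The block at 1838900 to 1840859 had a plus-strand median of 2.51 ± 1.29 in asf1-1 and 3.25 ± 1.61 in hip1-deleted cells, and a minus-strand median of 0.24 ± 0.71 in asf1-1, which turned to -0.33 with median centring. The sequence numbered 4, over 41.2 kb, stayed near 0, with 0.01 ± 0.88 on the plus and 0.07 ± 0.98 on the minus strand. It had 8 windows higher and 4 lower. Higher were 4.88% of its plus-strand and 14.6% of its minus-strand windows, beside 13.6% of all windows. Its highest window, on the minus strand at 8051 to 9010, had 2.23 ± 1.23 over 7 probes.

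**Figure D5:**
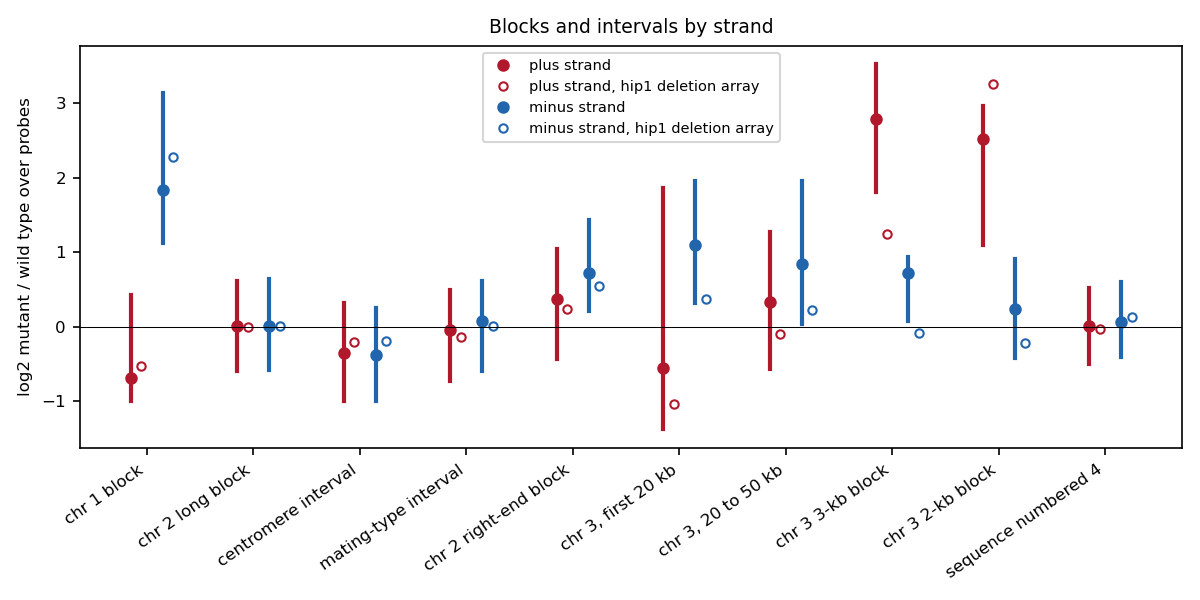
Median log2 ratio over the probes of each tiled block or interval, plus strand in red and minus strand in blue, with filled points for asf1-1 over wild type, bars from the 25th to the 75th percentile of its probes, and open points for the hip1 deletion over wild type. The minus strand of the chromosome 1 block (1.84), the plus strands of both short chromosome 3 blocks (2.79 and 2.51) and the minus strand of the first 20 kb of chromosome 3 (1.09, but 0.42 with median centring) stand above 2-fold, and the long block of chromosome 2 lies at 0 on each strand.

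A wild-type signal near background limits how well an increase can be measured. In 449 windows under 50% of the wild-type spots were well above background. Of these, 69 (15.4%) were at least 2-fold higher in asf1-1, beside 13.6% of all windows, and because they were chosen for a low wild-type signal, their direction is a description only. The plus-strand window at 1855061 to 1856020, with 1 of 10 wild-type spots above background, had a ratio of 2.11 ± 0.79, at a signal of 9.33 in asf1-1 and 7.04 in wild type. The minus-strand window at 2072011 to 2072970, with 3 of 10, had 2.06 ± 0.23. With median centring these ratios were 3.23 and 3.26, so the folds of such windows depend on the scaling. In 244 of the 595 higher windows every wild-type spot was above background.

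Some windows already bright in wild type were also past 2-fold. The brightest 25% of windows had wild-type signals of at least 12.1, and of these 1095 there were 33 on the higher side (3.01%, beside 13.6% of all windows) and 63 on the lower side (5.75%, beside 7.42%). The choice by wild-type signal itself bears on this split. The highest ratio among them was that of the minus-strand window at 2662011 to 2662970, at 4.74 ± 2.31, with signals of 17.46 in asf1-1 and 12.66 in wild type. The minus-strand window at 1045011 to 1045970 had 2.04 ± 0.98, at 17.72 in asf1-1 and 15.56 in wild type. Among bright windows that were lower, the minus-strand window at 2246011 to 2246970 had -2.26 ± 0.51, at 10.15 in asf1-1 and 12.53 in wild type, and the plus-strand window at 1772061 to 1773020 had -1.61 ± 0.11, at 13.00 in asf1-1 and 14.63 in wild type.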

How the data were processed

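RNA of asf1-1 and of wild type was measured in the red and green channel of 1 array, and a second array with RNA of the hip1 deletion gave values side by side. The authors scanned spots with Agilent Feature Extraction 10.1.1.1, per the file headers, and deposited median intensity values of spots and background without normalization. The deposited log10 ratio has had background removed and dyes balanced by that software, as the file headers record, and the deposited p-value of each log10 ratio describes 1 spot. The authors' series table holds log2 values that follow the scanner's log ratio, with 0 where that p-value is above 0.05. It was used as an alternative only.

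Background was removed from median intensities by normexp (offset 50), and loess was fitted to the log2 ratio of asf1-1 over wild type within the array (limma 3.58.1, R 4.3.3), with control and outlier spots at weight 0. Single-channel signals combine this ratio with the quantile-normalized mean log2 intensity. Probes that cleared the background in any of the 4 channels were kept and summarised as medians over 1-kb windows of 1 strand with at least 3 probes (Python 3.11.15, numpy 2.4.6, pandas 2.3.3, matplotlib 3.10.9). Boundaries of stretches used every probe that was no outlier. Since they follow the ratios, the SD of a stretch covers probes kept for being past 2-fold, with single misses allowed. The background step, loess and window calls were tested on simulated data, and the joining of runs on a made-up strand. Stretch boundaries, strand pairs, the overlay and the shift along chromosome 3 were not tested in this way.

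Windows were named by rule: the 12 highest and 12 lowest with at least 5 probes and 80% of them on the window's side, the 8 longest runs in each direction, the 6 highest on each strand where both strands were higher, the 6 highest dim in wild type, and the 6 highest and 6 lowest of the brightest 25% in wild type. Other stretches, strand pairs and windows were named after their values were seen. The intervals and the rule were chosen with earlier results of these data known. Alternatives were another background step, scaling, probe filter, window, fold or summary. The files used here hold no mean spot signal, so the scanner's background-subtracted mean took its place. No probe sequence and no genome of the array's build was used. With 1 array a mutant, precision is limited by the number of arrays.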

Additional observations from a re-analysis of the deposited data

Results flagged for a closer look

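The plus-strand window at 5061 to 6020 on chromosome 3 was past 2-fold in opposite directions on the 2 arrays. Its log2 ratio over wild type was 1.71 ± 1.05 in asf1-1 and -1.09 ± 0.52 in hip1-deleted cells (SD, 10 probes). Signals on its own array were 11.15 in asf1-1 and 9.69 in wild type. The difference between the mutants was not tested, since each has 1 array.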

How the results depend on the processing

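The counts of the main processing were 595 windows higher and 325 lower, 46 runs of 3 or more windows higher and 21 lower, 18 positions with both strands higher, and 69 higher windows mostly dim in wild type. In the same order, a 1.5-fold threshold gave 1089, 844, 108, 70, 74 and 163, and a 4-fold threshold 150, 22, 7, 0, 4 and 6. Windows of 2 kb gave 237, 98, 14, 0, 9 and 27, and windows of 500 bp 1283, 850, 159, 74, 38 and 184. Median centring gave 1195, 844, 133, 94, 52 and 208, the scanner's log ratio gave 996, 585, 109, 39, 52 and 255, and the values of the authors' series table gave 911, 568, 97, 38, 37 and 194. Loess on probes above background in every channel, which moved the median window by 0.21, gave 1009, 252, 107, 19, 61 and 283, so the higher counts grew while the lower ones fell. With only probes above background in both channels of the array, no window mostly dim in wild type is left by construction (0). The causes of the other moves were not tested.

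None of the 51 named windows changed sign under any alternative. Only 1, on the minus strand at 1337011, fell just short of 2-fold, with only probes above background in both channels. These windows were chosen for high or low values in the main processing, and most alternatives use the same spots. Their kept sign is therefore no independent check. Median centring moved 36 of them by more than 1.5-fold. Of 22 medians of blocks and intervals, 9 changed sign under some alternative. The plus strand of the first 20 kb of chromosome 3 turned from -0.56 to 0.47 with the other wild type, and with median centring the centromere interval from -0.36 and -0.38 to 0.17 and 0.20 and the minus strand of the chromosome 3 block from 1838900 from 0.24 to -0.33. Of 709 values of the 51 named windows under the alternatives, 644 stayed within the SD over probes and 65 did not. Median centring lowered the windows of the 2 strongest loci to between 4.32 and 5.32. Of 308 medians of blocks and intervals, 259 moved by less than 0.25 on the log2 scale. The wild-type channel of the hip1 deletion array, an alternative chosen after seeing the data, gave 629 windows higher and 328 lower. No paired analysis was possible because there is only 1 array of each mutant, and no replicate could be left out. Spots dim in wild type limit how large an increase can be measured.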
